A study of Mus musculus with 23 samples.

Results

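The integrated stress response was followed here through 10 genes: Atf4, Atf3, Ddit3, Trib3, Asns, Chac1, Sesn2, Phgdh, Psat1 and Psph. They were chosen as Atf4 itself and well known members of the program it drives, with earlier results of these data known. Their probes were found by the RefSeq transcript that the array files give for each probe. All 10 were on the array, with 14 of its 55681 non-control probes, among 20145 named genes in all. Atf4, Phgdh, Psat1 and Psph had 2 probes each. Every member was above background and above the 20th percentile of signal on all 23 arrays, so none passed the filter on dim probes only because it was high in 1 group.

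When a cell is short of amino acids, accumulates unfolded protein in the endoplasmic reticulum or is otherwise stressed, protein kinases phosphorylate the initiation factor eIF2. General translation then slows while the Atf4 messenger is translated more efficiently, and the ATF4 protein switches on genes for amino acid synthesis and transport, for charging of transfer RNAs and for the later regulators of the response. ATF4 is thus controlled largely at translation, and an array measures only messenger levels. In the testis, Sertoli cells nourish the germ cells, which includes the supply of amino acids and other metabolites.

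The samples were cultures of TM4, an immortalized mouse Sertoli cell line, each treated for 48 hr at 100 µM in 1% DMSO or with 1% DMSO alone. MEHP is the main active metabolite of the phthalate plasticizer DEHP, DINCH is a commercial replacement, and DOM (dioctyl maleate), DOS (dioctyl succinate) and BDB (1,4-butanediol dibenzoate) are proposed replacements. DOS had 3 arrays and each of the other 5 groups 4, described in the methods as biological replicates of this single line. All groups, the controls included, received the solvent, and there was no untreated culture.

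Of 11 Sertoli cell markers, 4 (Gata4, Inha, Inhbb and Dmrt1) were well above background on all 23 arrays, while Wt1, Fshr and Cldn11 were above it on none. The markers of other testis cells that were above background on all arrays were 1 of 5 Leydig cell genes on the array (Cyp17a1), 3 of 5 peritubular myoid genes (Acta2, Cnn1 and Tagln), 1 of 3 macrophage genes (Csf1r), 2 of 4 endothelial genes (Pecam1 and Kdr) and 0 of 5 germ cell genes. The label of a Sertoli line is therefore met in part. Each array held 43.4% to 52.18% of its non-control spots well above background. The arrays lay on 3 slides, and DMSO, DOM and DOS occupied rows 2 and 4 of the slides while MEHP, DINCH and BDB occupied rows 1 and 3. For the latter 3 compounds, slide row and the comparison with DMSO cannot be told apart. RNA was measured from the whole culture, so fewer cells of a kind and less RNA per cell cannot be told apart either.

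ATF4 binds, with partners of the C/EBP family, an element called the CARE, written here as TGATGNAA. In the RefSeq window from 250 bases before to 50 bases after each gene's start (GRCm38.p6), these letters stood on either strand in 4 of the 10 members, against 4.51% of the 27025 genes with a window. The 4 stretches are printed to show where the element lies relative to the genes measured. Each reads 5′ to 3′ in the direction of its gene, with the matched letters in capitals.
Atf3: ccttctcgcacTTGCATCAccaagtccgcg
Trib3: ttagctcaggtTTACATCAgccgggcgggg
Asns: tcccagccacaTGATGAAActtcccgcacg
Chac1: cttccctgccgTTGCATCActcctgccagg
The Atf3 stretch is chr1:191183425-191183454 on the minus strand, with the match at bases -110 to -103 from the start. The Trib3 stretch is chr2:152344028-152344057 on the minus strand, with the match at bases 15 to 22 after the start. The Asns stretch is chr6:7693214-7693243 on the minus strand, with the match at bases -23 to -16, and it alone carries TGATGNAA on the strand of the gene. The Chac1 stretch is chr2:119351038-119351067 on the plus strand, with the match at bases -193 to -186. In Atf3, Trib3 and Chac1 the letters are on the opposite strand and so read as their reverse complement. The cyclic AMP response element TGACGTCA, searched the same way, was in 0 of the 10 windows, against 2.03% of all genes. The windows of Atf4, Ddit3, Sesn2, Phgdh, Psat1 and Psph held neither run of letters, which says nothing about the same letters outside these windows.

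DOM lowered most of the members. Of the 10, 9 were called lower than DMSO and 0 higher, while 10.6% of the 12005 named genes tested were called lower. A probe was called when limma's moderated test gave an adjusted p below 0.05 with a difference of more than 1.5-fold, and a gene when any of its probes was called. DINCH lowered 3 members (Trib3, Sesn2 and Psph), where 4.02% of genes were called lower. These fits did not pair the replicates. With the replicate number as a block, Atf3 was called lower with DINCH as well. MEHP changed 0 members, where 1.69% of genes were called in either direction. BDB and DOS also changed 0 members, and in both comparisons 0% of all genes were called. At an unadjusted p below 0.05 the same limma fits gave 2 members for MEHP (Ddit3 and Psph, both lower), 4 for BDB (Atf3, Ddit3 and Trib3 higher, Psph lower) and 0 for DOS. Among all genes tested, 21.6%, 19.0% and 7.73% were below that p with MEHP, BDB and DOS. Among the markers of other testis cells, the peritubular myoid gene Cnn1 was also called lower with DOM (-1.21). The log2 of the summed signal of the 5 myoid markers was 6.88 to 7.30 with DOM and 6.86 to 7.22 with DMSO, which overlap. Tagln and Acta2 carry that sum (mean log2 levels 6.80 and 5.16). Cnn1 (0.33) is too dim to move it, so the overlap does not bear on the Cnn1 change. Of the Sertoli markers, Sox9 was called lower (-0.92) and Inha and Inhbb higher (1.05 and 1.61) with DOM, and Inha higher with DINCH (0.64). Summed likewise, the 11 Sertoli markers stood at 5.35 to 6.07 with DOM and 3.51 to 4.67 with DMSO, which do not overlap. With DINCH the sum was 2.92 to 3.91, which overlaps DMSO. Inhbb carries this sum (mean log2 level 4.25, with Gata4 next at -0.09). The gap between DOM and DMSO is thus that of Inhbb and not of the 11 markers together. The part of these differences in those of the members was not tested.

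The median log2 difference of the 10 members from DMSO was -0.89 with DOM, -0.33 with DINCH, -0.13 with MEHP, -0.12 with DOS and 0.06 with BDB. Over all named genes tested the medians were -0.03, -0.0007, -0.01, -0.008 and -0.03 in the same order. All 5 comparisons share the 4 DMSO arrays. DOM was the lowest of the 6 groups for 9 members, with Sesn2 the exception, and BDB was the highest for 6. Centring each array on its median instead moved the median of all probes with DOM from -0.0764 to 0.134 on the log2 scale, and the members called lower with DOM went from 9 to 5 and with DINCH from 3 to 1. All 10 members remained below DMSO with DOM under that scaling.

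**Figure D1:**
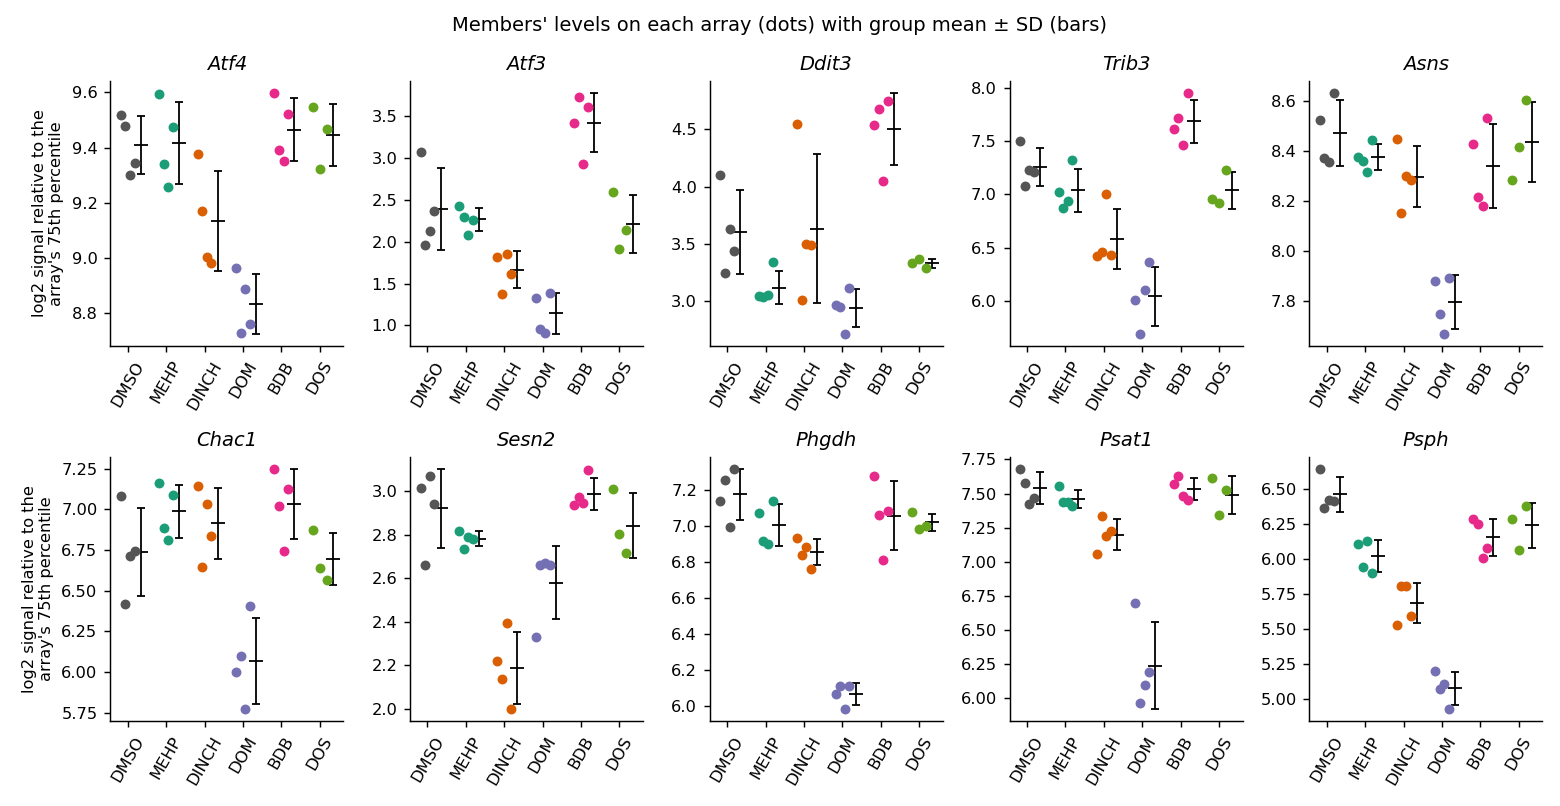
Levels of the 10 members on each of the 23 arrays, as log2 signal relative to the array's 75th percentile, one dot per array, with the mean ± SD of each group beside the dots (n = 4, DOS n = 3). The vertical scale differs between panels, and every DOM dot lies below every DMSO dot in all panels but Sesn2.

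The levels below are the log2 signal of a gene's brightest probe relative to the 75th percentile of its array, so a level of 0 is that percentile. A level cannot be compared between genes, because probes differ in brightness. The SD within a group ran from 0.0344 to 0.648 over the 60 pairs of gene and group, with a median of 0.155. With DOM, every array was below every DMSO array for 9 of the 10 members, and so were 20.5% of all genes tested. With DINCH, 6 members were wholly below DMSO, against 12.4% of genes.

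Atf4 encodes the central transcription factor of the response. Its levels were 9.52, 9.48, 9.30 and 9.34 with DMSO and 8.96, 8.73, 8.89 and 8.76 with DOM, which do not overlap. The brighter probe differed by -0.58 (SE 0.10, adjusted p = 0.00283), or 1.49-fold, just inside the limit of fold change, and the dimmer probe by -0.66 (SE 0.12, adjusted p = 0.00323), so that Atf4 was called on its dimmer probe alone. With DINCH the 4 arrays read 9.38, 9.17, 9.0 and 8.98 and overlapped DMSO, with a difference of -0.28 (adjusted p = 0.164). The differences of the brighter probe with MEHP, BDB and DOS were 0.01, 0.06 and 0.04, and their 95% intervals lay within -0.22 and 0.28.

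Atf3, a transcription factor induced early by many stresses, read 3.08, 1.96, 2.13 and 2.37 with DMSO and 1.33, 0.96, 0.91 and 1.39 with DOM. The DOM arrays were all lower, by 1.24 in the log2 mean, and the gene fell 2.36-fold (SE of the log2 difference 0.23, adjusted p = 0.00434). With DINCH the levels of 1.82, 1.38, 1.85 and 1.62 also lay wholly below DMSO, and the difference of -0.72 did not pass (adjusted p = 0.0780). With the replicate number as a block, that difference passed at an adjusted p of 0.0348. A pairing by that number cannot be told apart from a shared slide. BDB gave 3.42, 3.73, 2.93 and 3.61, a difference of 1.04 that did not pass (adjusted p = 0.117), and the lowest BDB array was below the highest DMSO array. With all 6 groups in 1 limma fit the BDB difference passed, at an adjusted p of 0.0154.

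Ddit3 encodes CHOP, a factor associated with cell death under prolonged stress. DMSO read 4.10, 3.25, 3.63 and 3.44 and DOM 2.97, 2.95, 2.71 and 3.12. DOM lay wholly below DMSO and the gene fell 1.59-fold (log2 difference -0.67, SE 0.18, adjusted p = 0.0212). The call was lost without DOM replicate 2, without DOM replicate 3 or without DMSO replicate 3, with adjusted p from 0.0516 to 0.0525, and without DMSO replicate 1, where the log2 difference was -0.50. The DINCH arrays spread the most of any gene and group (4.54, 3.01, 3.50 and 3.49), with a difference of 0.03 and an interval of -0.66 to 0.72. BDB gave 4.54, 4.67, 4.05 and 4.75, a difference of 0.90 (adjusted p = 0.103). That difference passed with all 6 groups in 1 fit (adjusted p = 0.0487) and with a variance trend (adjusted p = 0.0483).

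Trib3, a pseudokinase that is induced by ATF4 and CHOP and feeds back on ATF4, read 7.50, 7.08, 7.23 and 7.21 with DMSO. DOM gave 6.01, 5.69, 6.11 and 6.37 and DINCH 6.43, 6.46, 7.0 and 6.43, both wholly below DMSO. Trib3 fell 2.32-fold with DOM (log2 difference -1.21, SE 0.15, adjusted p = 0.000744) and 1.60-fold with DINCH (log2 difference -0.68, SE 0.16, adjusted p = 0.0269). The DINCH call was lost when any of DINCH replicates 1, 2 and 4 or DMSO replicates 1, 3 and 4 was left out, at adjusted p from 0.0573 to 0.0734. With BDB the levels of 7.61, 7.71, 7.46 and 7.95 overlapped DMSO at 1 array, and the difference of 0.43 did not pass (adjusted p = 0.180).

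Asns encodes asparagine synthetase, the textbook ATF4 target. Its levels were 8.52, 8.37, 8.36 and 8.63 with DMSO and 7.88, 7.75, 7.67 and 7.89 with DOM. The groups did not overlap and Asns fell 1.60-fold (log2 difference -0.67, SE 0.10, adjusted p = 0.00172). Quantile normalization took the difference to -0.46, under the limit of fold change. For the other 4 compounds the differences from DMSO ran from -0.18 with DINCH to -0.04 with DOS, and none passed.

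Chac1, which degrades glutathione, read 7.08, 6.42, 6.71 and 6.74 with DMSO and 6.00, 6.10, 5.77 and 6.41 with DOM. The highest DOM array was just below the lowest DMSO array. Chac1 fell 1.59-fold (log2 difference -0.67, SE 0.17, adjusted p = 0.0167), and the call was lost without DOM replicate 3 (-0.57) or DMSO replicate 1 (-0.56), and with quantile normalization (-0.49, adjusted p = 0.0596). Its differences with MEHP, DINCH and BDB were 0.25, 0.17 and 0.30, none of which passed.

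Sesn2, a stress-induced inhibitor of mTORC1 and a sensor of leucine, was the exception among the 10. DMSO read 3.02, 2.66, 3.07 and 2.94, and DINCH 2.22, 2.14, 2.40 and 2.00, wholly lower. It fell 1.66-fold with DINCH (log2 difference -0.73, SE 0.13, adjusted p = 0.00992). DOM gave 2.33, 2.66, 2.67 and 2.66, which overlapped DMSO, with a difference of -0.34 (95% interval -0.63 to -0.06, adjusted p = 0.0678).

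Phgdh, Psat1 and Psph encode the enzymes that make serine from 3-phosphoglycerate, in that order. Phgdh read 7.14, 7.26, 6.99 and 7.31 with DMSO and 6.07, 6.11, 5.98 and 6.11 with DOM. The DOM arrays spread little and none came near DMSO, and the gene fell 2.15-fold (log2 difference -1.11, SE 0.10, adjusted p = 0.000241). Its second probe differed by -1.09.

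Psat1 read 7.68, 7.58, 7.42 and 7.47 with DMSO and 6.70, 5.96, 6.10 and 6.19 with DOM, of which 1 array stood above the other 3. It fell 2.46-fold (log2 difference -1.30, SE 0.16, adjusted p = 0.000634), and its second probe differed by -1.19. Psph read 6.65, 6.36, 6.43 and 6.42 with DMSO and 5.20, 5.07, 5.10 and 4.92 with DOM. It fell 2.62-fold, the largest drop of the 10 members (log2 difference -1.39, SE 0.10, adjusted p = 0.00016), and its second probe differed by -1.46.

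DINCH also lay wholly below DMSO for all 3 serine enzymes. Psph read 5.53, 5.81, 5.81 and 5.59 and fell 1.72-fold (log2 difference -0.78, SE 0.11, adjusted p = 0.00555). Phgdh and Psat1 differed by -0.32 and -0.34 (adjusted p = 0.0773 and 0.0676). With MEHP, Psph gave 6.11, 5.95, 6.13 and 5.90, again wholly below DMSO, with a difference of -0.44 that just missed the threshold (adjusted p = 0.0526) and was under 1.5-fold. The BDB arrays of Psph were all below DMSO too, by 0.31 in the mean (adjusted p = 0.210).

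**Figure D2:**
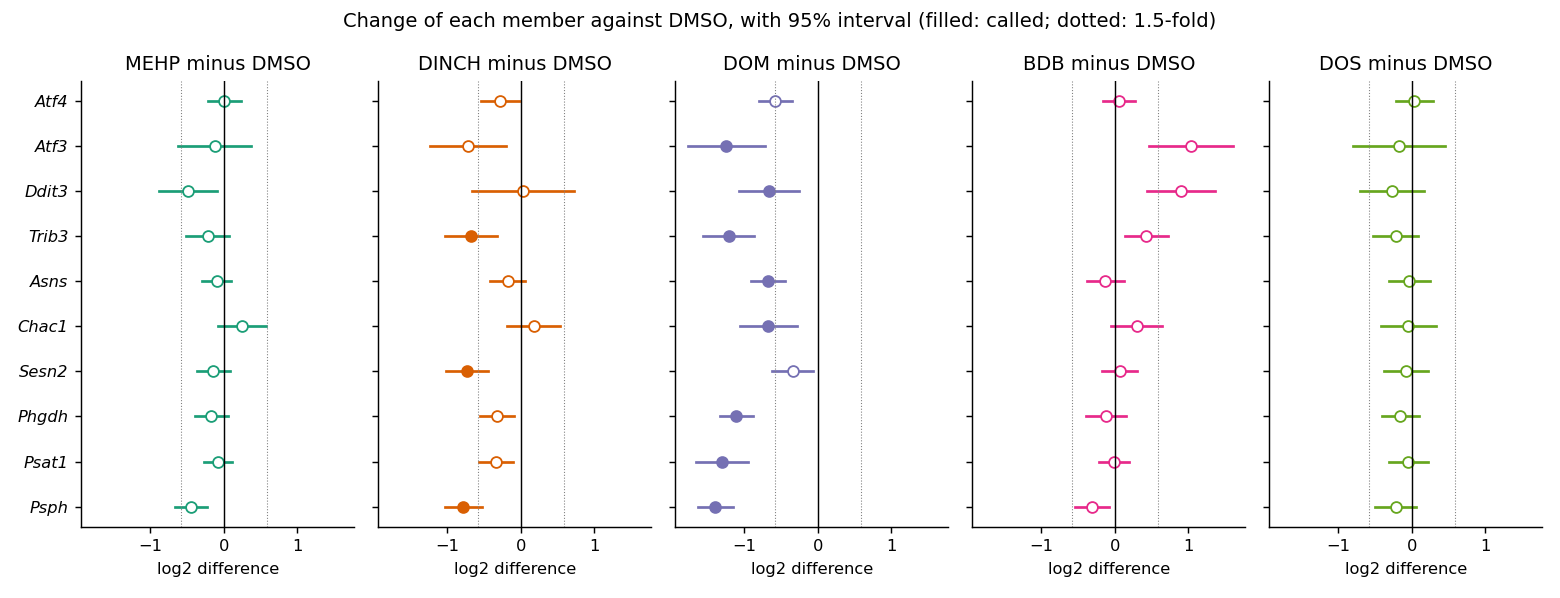
Log2 difference from DMSO of each member's brightest probe for the 5 compounds, with 95% intervals from limma, filled where called, and dotted lines at 1.5-fold. The DOM panel has all 10 differences below 0, from -1.39 for Psph to -0.34 for Sesn2, while the BDB panel has Atf3 and Ddit3 furthest above 0.

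DOM was below DMSO for all 10 members within each of the 3 slides, with differences from -1.93 to -0.20, and within slide rows 2 and 4, from -1.54 to -0.30. Within slides, DINCH was below DMSO for 8 or 9 members, MEHP for 7 to 10, DOS for 9 and BDB for 4. DOS thus reached as many as DINCH with 0 members called. These within-slide differences rest on 1 or 2 arrays a group and have no test. Phgdh, Atf3, Trib3, Psat1 and Psph kept their DOM call under all 21 alternative settings.

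Over the 23 arrays, each member's level was correlated with the mean of the other 9, with r from 0.54 for Sesn2 and 0.63 for Ddit3 to 0.93 for Trib3. These correlations run over arrays of all 6 groups and are given as a description. The genes outside the lists whose levels were most like the mean of the members, among 11069 detected on all arrays, were Apobec1 (r = 0.98), Tmcc3 (0.98), Tbpl1 (0.96), Recql4 (0.96) and Slc25a33 (0.95). Apobec1 encodes an RNA-editing enzyme, Recql4 a DNA helicase and Slc25a33 a mitochondrial carrier of pyrimidine nucleotides.

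The compounds were then set against each other, at the same dose and time, in 6 pairs fitted together with p-values adjusted over the 6 pairs. DOM and DOS are both dioctyl diesters of a short dicarboxylic acid, and differ in that maleate has a carbon-carbon double bond where succinate has a single bond. They also shared slide rows. DOM was lower than DOS for 8 of the 10 members, against 8.64% of genes called lower. Psat1 was 2.38-fold lower (log2 difference -1.25, 95% interval -1.52 to -0.99, adjusted p = 5.32e-07) and Psph 2.25-fold lower (-1.17, interval -1.39 to -0.95, adjusted p = 1.56e-07). Atf3 (-1.07), Trib3 (-0.99), Phgdh (-0.95), Asns (-0.64), Chac1 (-0.62) and Atf4 (-0.61) were lower as well.

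The last 3 of these lay near the limit of fold change. Chac1 lost its call without DOS replicate 1 (-0.54) or DOM replicate 3 (-0.53), and Asns without DOS replicate 4 (-0.55). Atf4 lost it without DOS replicate 1 (-0.56), while without DOM replicate 2 it was called on its dimmer probe alone. DOM and DOS were spread unequally over the slides, and with slide as a block Chac1 (-0.56) and Asns (-0.57) lost their calls, which left 6 members called. Chac1 also lost its call with the replicate block (-0.58). Quantile normalization or median centring left 5 members called (Phgdh, Psat1, Psph, Atf3 and Trib3). Ddit3 and Sesn2 were not called between DOM and DOS. They differed by -0.39 and -0.26 (adjusted p = 0.291 and 0.0987). Their 95% intervals, which are not adjusted, were -0.92 to 0.13 and -0.49 to -0.03. That of Sesn2 lay wholly below 0. A lower level with DOM of up to 0.92 and 0.49 on the log2 scale was thus not excluded. The DOS arrays themselves differed from DMSO by -0.27 (Ddit3) to 0.04 (Atf4) over the 10 members.

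DOM was lower than MEHP, the monoester of an aromatic acid, for 7 members (9.94% of genes called lower), all but Ddit3, Asns and Sesn2. Asns (-0.58, adjusted p = 0.000174) passed the p threshold and just missed the limit of fold change, at 1.49-fold. The brighter probe of Atf4 (-0.58) missed that limit too, and Atf4 was called on its dimmer probe alone (-0.76). Phgdh and Psat1 differed by -0.94 and -1.22, and Ddit3 by -0.18 with an interval of -0.67 to 0.30. DOM was lower than DINCH, a diester of a saturated ring acid, for 5 members (11.6% of genes): Phgdh, Psat1, Psph, Ddit3 and Chac1. Median centring left 2 of these, Phgdh and Psat1. Ddit3 lost its call without DINCH replicate 1 (-0.39, adjusted p = 0.141) and without DOM replicate 1, 2 or 3, and Psph without DINCH replicate 2 or 3 or DOM replicate 4 (-0.57 to -0.56). Sesn2 went the other way, with DOM above DINCH by 0.39 (interval 0.18 to 0.61, adjusted p = 0.00840), under 1.5-fold. For both pairs the slide rows differ, and row and compound cannot be told apart.

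MEHP, DINCH and BDB shared slide rows. MEHP was higher than DINCH for Atf3 and Sesn2 (2.08% of genes called higher), by 0.60 and 0.59, both barely over 1.5-fold. Atf3 lost that call without MEHP replicate 1, 2 or 4 or DINCH replicate 1, 2 or 4 (0.50 to 0.65), and Sesn2 without MEHP replicate 1 or DINCH replicate 2 or 4 (0.53 to 0.58). Quantile normalization left 0 of the 2. At an unadjusted p below 0.05 the limma fit as first scaled gave 7 members, 6 higher and 1 (Ddit3) lower in MEHP. Among all genes tested, 27.1% were below that p.

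MEHP was lower than BDB for Ddit3 (-1.38, SE 0.23, adjusted p = 0.000189), Atf3 (-1.16) and Trib3 (-0.65), where 1.42% of genes were called lower. Trib3 lost that call without BDB replicate 4 (-0.56). DINCH was lower than BDB for 4 members (4.96% of genes): Atf3 (-1.76), Trib3 (-1.11), Ddit3 (-0.87) and Sesn2 (-0.80). Atf3 was the largest of these, 3.38-fold lower with DINCH than with BDB (interval of the log2 difference -2.20 to -1.32). The serine enzymes and Asns were not called in any of the pairs among MEHP, DINCH and BDB. The differences of their brightest probes ran from -0.47 to 0.34. For Psph only the limit of fold change was missed in 2 of these pairs. DINCH was below BDB by 0.47 and, on the second probe, 0.57 (adjusted p = 0.00148 and 0.000306). MEHP was above DINCH by 0.34 and 0.47 (adjusted p = 0.0173 and 0.00175).

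**Figure D3:**
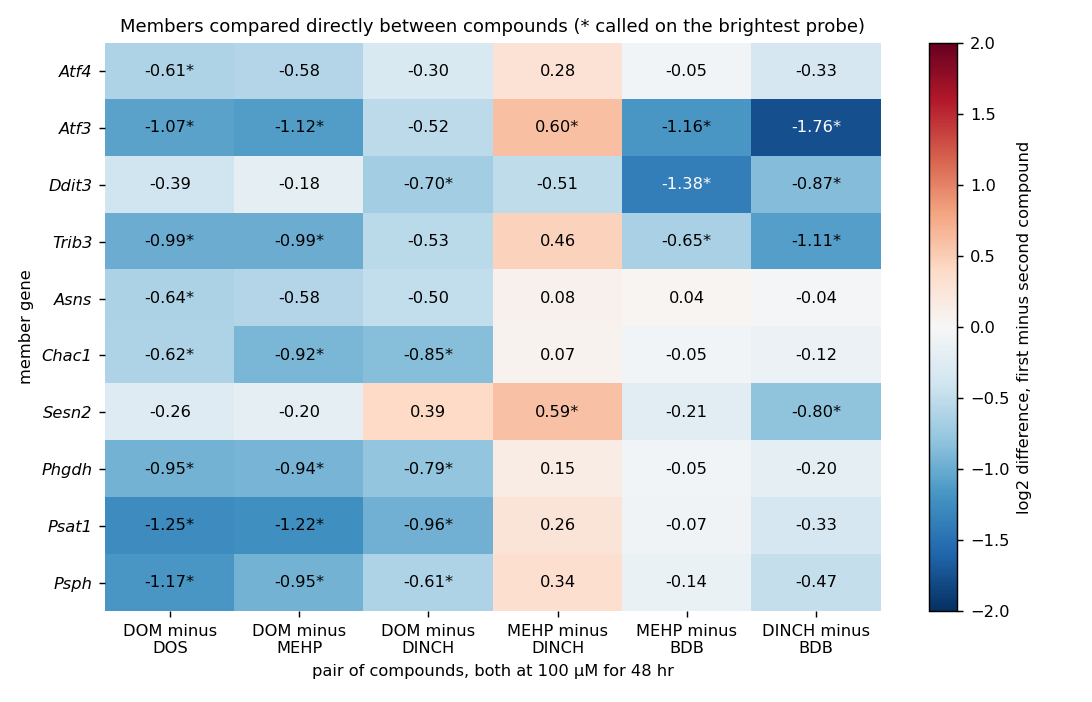
Log2 difference of each member's brightest probe between 2 compounds, first minus second, for the 6 pairs, with a star where that probe was called. DOM minus DOS runs from -1.25 for Psat1 to -0.26 for Sesn2, and DINCH minus BDB reaches -1.76 for Atf3.

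Other genes of the pathway were counted from lists of its known parts, also chosen with earlier results of these data known. Over all named genes tested, 10.6% were called lower with DOM, 4.02% with DINCH and 0.561% with MEHP. Among other ATF4 targets, DOM lowered 10 of 14 tested and raised 0, with a median of -0.81. Fgf21, a secreted metabolic hormone, fell 6.95-fold (log2 difference -2.80, SE 0.18, adjusted p = 0.000106). Its mean level was -0.35 with DMSO and -3.15 with DOM, so this fold rests on a dim level. Cth, which makes cysteine, fell 4.58-fold, Adm2, a secreted peptide, 2.63-fold and Gdf15, a secreted stress cytokine, 2.60-fold. DINCH lowered 7 of 14, led by Adm2 (2.28-fold), Stc2, Cth and Xpot (1.80-, 1.79- and 1.68-fold). Of the 7, Vldlr was called on its dimmer probe alone (-1.09), while its brighter probe differed by -0.46, under 1.5-fold. Vldlr is named here after its values were seen. Fgf21 with DINCH differed by -0.30 and was not called.

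All 5 serine-linked one-carbon enzymes fell with DOM, with a median of -1.12: Shmt2 3.47-fold, Shmt1 2.45-fold, Mthfd1l 2.18-fold, Aldh1l2 1.96-fold and Mthfd2 1.77-fold. Shmt2, the mitochondrial enzyme that takes the one-carbon unit from serine, had the largest change of the list, with a log2 difference of -1.80 (SE 0.11, adjusted p = 7.73e-05). DINCH lowered 2 of the 5, Shmt2 (1.74-fold) and Mthfd1l (1.61-fold).

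Of 11 aminoacyl-tRNA synthetases, DOM lowered 9, led by Wars (2.21-fold), Nars (1.92-fold), Sars (1.88-fold) and Tars (1.62-fold). DINCH lowered Wars (1.79-fold), Yars (1.76-fold) and Nars (1.64-fold). The rule also called Aars with DINCH and, alone of the 11, with MEHP, but on its dimmer probe, which stood well above background with DMSO but on 0 of the DINCH and MEHP arrays, so that its level with these compounds is only a bound. The brighter Aars probe differed by -0.38 with DINCH (adjusted p = 0.0378) and -0.28 with MEHP (adjusted p = 0.179), both under 1.5-fold, and Aars is named here after its values were seen. TGATGNAA was in the windows of 5 of the 8 synthetases, 4 of the 13 other targets and 0 of the 4 one-carbon enzymes that had one. It was in 2 of 6 amino acid transporters, 1 of 4 related transcription factors and 1 of 10 genes of the ATF6 and XBP1 arms. The genes upstream of ATF4 had it in 0 of 12. Among all genes with a window the share was 4.51%.

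Of 8 amino acid transporters, DINCH lowered 4 and DOM 2, and the median of the list in DOM against DINCH directly was 0.06. Slc7a11, the cystine importer, fell 3.04-fold with DINCH (log2 difference -1.60, SE 0.31, adjusted p = 0.0147) and differed by -0.19 with DOM. Slc7a5, a leucine importer, fell with both, 2.06-fold and 2.46-fold. Slc6a9 (1.80-fold) and Slc7a1 (1.74-fold) fell with DINCH, and Slc3a2, the partner chain of Slc7a5 and Slc7a11, with DOM (1.56-fold).

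Upstream of ATF4, of 15 kinases, eIF2 and eIF2B subunits, phosphatase subunits and sensors, DOM lowered 1, Ppp1r15a (2.02-fold), which encodes GADD34, the inducible subunit that reverses eIF2 phosphorylation. DINCH and MEHP lowered 0 and raised 0. The 4 eIF2 kinases Eif2ak1, Eif2ak2, Eif2ak3 and Eif2ak4 differed from DMSO by 0.42, 0.37, 0.40 and 0.56 with DOM, all under 1.5-fold, and are named here after their values were seen. Of the 4 related transcription factors, DOM lowered Cebpg (1.75-fold) and DINCH lowered Atf5 (1.82-fold). Of 12 genes of the ATF6 and XBP1 arms of the unfolded protein response, DOM lowered 2, Herpud1 (1.99-fold), a component of protein degradation at the endoplasmic reticulum, and Hspa5 (1.62-fold), its main chaperone. DINCH lowered 1, Ern1 (1.57-fold), the sensor IRE1. Over all genes 10.6% were called lower with DOM and 4.02% with DINCH. Counts this small do not set the lists of this paragraph apart from those shares. The medians of these 12 were -0.08 with DOM and 0.15 with DINCH. BDB and DOS changed 0 genes of the 7 lists.

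**Figure D4:**
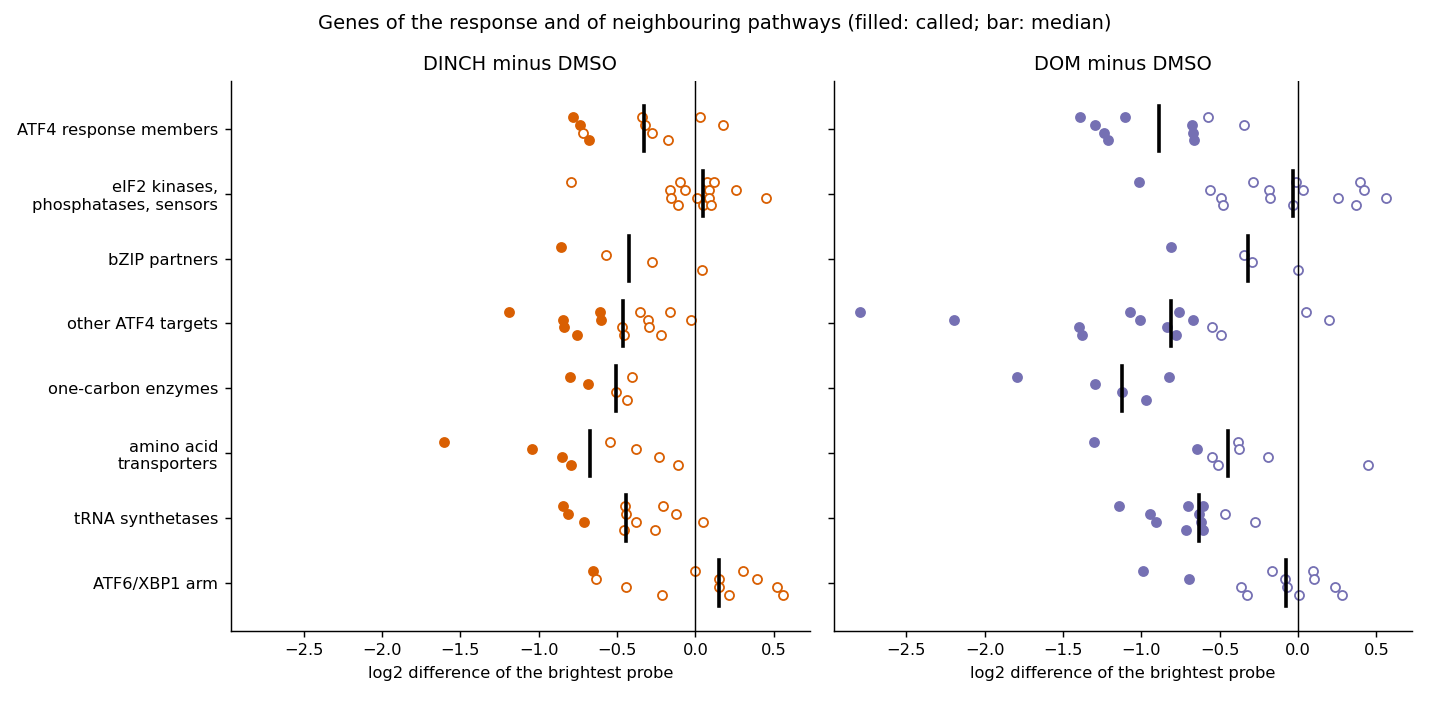
Log2 difference from DMSO of the brightest probe of each gene in the members' list and the 7 other pathway lists, for DINCH and DOM, filled where called, with the median of each list as a bar. The one-carbon enzymes with DOM have the lowest median (-1.12), and the lists upstream of ATF4 and of the ATF6 and XBP1 arms lie around 0 in both panels.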

How the data were processed

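RNA from 23 cultures was labelled with Cy3 and hybridized to 1-colour Agilent arrays. The authors extracted the spots with Feature Extraction 11.5.1.1, and the deposited intensities are its linear processed signals, background-subtracted and without scaling across arrays. A second deposited set held log2 values that the authors had shifted to the 75th percentile and set to each probe's median, which were used as an alternative. Each array correlated best with its own column of that table (lowest r = 0.9996).

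Here, log2 of the processed intensity (floor 1) was expressed against the 75th percentile of the 59305 non-control spots of the same array, without the 102 to 187 outlier spots of each array, and repeated spots of 1 probe were averaged. Probes were named by RefSeq accession (26582 of 55681). The array design and the gene table use different builds, and the printed coordinates come from the RefSeq window table. A probe entered a test if all arrays of 1 or both groups had it well above background and not under their 20th percentile. limma 3.58.1 in R 4.3.3 was run for each compound against DMSO, and for the 6 pairs in 1 fit of all groups, with Benjamini-Hochberg adjustment over all tested probes and calls at an adjusted p under 0.05 and over 1.5-fold. A gene is given by its brightest probe. From the other lists, genes called with every treated array beyond DMSO were named, up to 4 a list and comparison. The scripts were tested on simulated data. The alternatives covered scaling, background correction, filters, outlier spots, blocks, the variance model, the probe rule, the authors' table and leaving out each array. The precision is limited by the number of arrays. One DOS array was excluded by the authors for high background. One gene of the marker lists is not reported here. Members, pairs and lists were chosen with earlier results of these data known. Replicate numbers are shared between groups. The deviations of same-numbered samples correlated at 0.162 to 0.561 for DINCH, 0.31 to 0.458 for BDB and 0.254 to 0.511 for DOS. For MEHP and DOM they correlated at -0.159 to 0.533 and 0.0626 to 0.477, where not every pair passed 0.1. Most same-numbered samples also lay on the same slide as their DMSO sample. Those that did not gave the lowest correlation of their compound: MEHP replicate 2 (-0.159), DOM replicate 2 (0.0626), DINCH replicate 3 (0.162) and DOS replicate 3 (0.254). A pairing by replicate number and a shared slide therefore cannot be told apart in these values. The main fits of all comparisons used no block. The replicate block was run only as an alternative, with its counts given below.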

Additional observations from a re-analysis of the deposited data

Results flagged for a closer look

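In 3 of the 50 groups of 4 arrays, 1 array stood far from the other 3, measured as its gap to the nearest array over the range of the group, with a critical value of 0.829 that chance passes in about 1 group in 20. Ddit3 was highest on MEHP replicate 4 (0.956), Trib3 on DINCH replicate 3 (0.944), and Sesn2 was lowest on DOM replicate 1 (0.97). These replicates share neither a gene nor a compound.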

How the results depend on the processing

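Against DMSO, no member changed direction in a call under any setting tried. Median centring left 1 member called with DINCH and 5 with DOM, and dropping the filter on dim probes left 0 with DINCH, where more probes entered the adjustment. BDB gave 1 call with a variance trend and 2 with all 6 groups in 1 fit. Leaving out 1 array gave 2 to 3 calls with DINCH and 6 to 9 with DOM, and 0 with MEHP, BDB and DOS. With the replicate block, 4 members were called with DINCH, 9 with DOM and 0 with MEHP, BDB and DOS.

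Between compounds, DOM and DOS gave 5 calls with quantile normalization and 5 with median centring, 7 with the replicate block, and 6 to 8 with 1 array left out. DOM and DINCH gave 2 with median centring, and 4 to 5 with 1 array left out. MEHP and DINCH gave 0 with quantile normalization, 1 with no filter, 1 with detection on 1 array and 1 with slide as a block, and 0 to 3 with 1 array left out, where the call without DINCH replicate 2 was of Ddit3 and lower in MEHP. The ranges with 1 array left out were 7 to 8 for DOM and MEHP, 2 to 3 for MEHP and BDB, and 4 to 6 for DINCH and BDB. The causes were not tested. The replicate block changed no other count by over 1.5 times.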
